A study of Mus musculus with 23 samples.

Results

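Serotonin acts through a family of receptors, and 10 genes of that family were followed here in the mouse hippocampus: Htr1a, Htr1b, Htr1d, Htr2a, Htr2c, Htr3a, Htr4, Htr5a, Htr6 and Htr7. They were taken by gene symbol, as members of that family, from a table of 19733 genes, and each symbol was found there. Earlier results of these data were known when they were chosen. The RNA came from 23 wild-type male C57BL/6J mice that were acquired at 6 weeks of age and treated for 16 weeks, followed by 1 week of behavioral tests. The study asked whether urolithin A (UA), a compound that gut bacteria make from dietary polyphenols, counters the effects of chronic alcohol on cognition and social behavior. Mice in the Ctrl group (n = 9) were fed an AIN93M liquid diet without ethanol and received the vehicle, CMC-Na, by gavage. Mice in the EtOH group (n = 7) were fed the ethanol liquid diet with the same vehicle. Mice in the EtOH-UA group (n = 7) were fed the ethanol diet and received UA at 200 mg/kg per day by gavage. All groups thus shared genotype, sex, strain and daily gavage, and no group received UA without ethanol.

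All of these receptors except Htr3a are coupled to G proteins. Htr1a, Htr1b, Htr1d and Htr5a signal through Gi/o, which lowers cyclic AMP and dampens the firing or transmitter release of the cell that carries them. Htr2a and Htr2c signal through Gq and phospholipase C. Htr4, Htr6 and Htr7 signal through Gs, which raises cyclic AMP, whereas Htr3a forms a cation channel. In the hippocampus serotonin arrives from cells of the raphe nuclei, and its receptors sit on pyramidal cells, granule cells and interneurons, where they have been studied for memory, anxiety and alcohol intake.

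The files give FPKM, a count of sequenced fragments divided by the length of the transcript and the depth of the library, so levels can be compared between genes per length. The steps between the lowest values gave an estimated depth of 16.9 fragments per kilobase at 1 FPKM, and in 18 of 23 libraries the estimate from that library alone lay within 5% of this value. The mean level of Htr1a thus rested on about 673 fragments per mouse and that of Htr6 on between 46.0 and 79.1, depending on which of its annotated transcripts was taken. For Htr1d it was between 3.18 and 4.12. Summed FPKM ranged from 327896 to 404609 between mice, and the highest sum belonged to an EtOH-UA mouse that was also the lowest of its group for 6 of the 10 receptors. Markers of hippocampal neurons were present in every mouse: Neurod6, a transcription factor of pyramidal cells, ranged from 71.3 to 132.87 FPKM, and Prox1, which marks granule cells of the dentate gyrus, from 5.66 to 23.18 FPKM. The lowest Prox1 value belonged to a Ctrl mouse that was also the highest of its group for 6 of the 10 receptors and the lowest for Htr6. Whole tissue was sequenced, so fewer cells that carry a receptor and less RNA per cell cannot be told apart.

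Values were compared as log2(FPKM + 0.1) in one limma model of the 3 groups over the 15985 genes whose mean reached 0.1 FPKM, and fold changes are on that scale. Of the 10 receptors, 9 passed this filter and Htr1d did not. For each receptor a two-sided exact permutation test of the group means was added, with 3432 possible splits for EtOH-UA against EtOH and 11440 for a comparison with Ctrl. Each column of the table carries a mouse number of its own. Every pair of comparisons shares the mice of a group, so the 3 are not independent of each other.

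No receptor differed between groups at an adjusted p under 0.05 (limma, Benjamini-Hochberg over all genes). In EtOH against Ctrl mice 0 of 9 receptors passed, beside 0.0% of all genes. The same held for EtOH-UA against EtOH mice (0 of 9, beside 0.0%) and for EtOH-UA against Ctrl mice (0 of 9, beside 0.0%). At an unadjusted p under 0.05 there was 1 receptor, Htr6, in EtOH against Ctrl mice, where 3.05% of all genes had such a p. In EtOH-UA against EtOH mice there was none, against 3.27% of genes. In EtOH-UA against Ctrl mice there was again Htr6 alone, against 3.08%. In the model 5 of 9 receptors were lower and 4 higher in EtOH than in Ctrl mice, with a median log2 fold change of -0.0052, beside -0.0030 for all genes. In EtOH-UA mice 6 were lower and 3 higher than in EtOH mice (median -0.07, all genes 0.0033), and 6 were lower and 3 higher than in Ctrl mice (median -0.05, all genes 0.0024).

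Htr6 encodes a Gs-coupled receptor found almost only in the brain, and it was the member with the smallest p. It lies at chr4:139059706-139075570 of GRCm38, the build that is also called mm10. The Ctrl mice ranged from 1.57 to 2.64 FPKM with a median of 2.23. The EtOH mice lay between 1.69 and 2.02 with a median of 1.78, and the EtOH-UA mice between 1.70 and 2.22 with a median of 1.79. Every one of the 7 EtOH mice and every one of the 7 EtOH-UA mice was below the Ctrl median, and a single Ctrl mouse, at 1.57 FPKM, was the lowest of all 23. The EtOH and Ctrl mice overlapped through that mouse (highest EtOH mouse 2.02, next Ctrl mouse 2.06), and the EtOH-UA mice at 2.14 and 2.22 FPKM also lay among the Ctrl mice. How many of all genes show such patterns was not counted. The mean level was 2.22 ± 0.31 FPKM in Ctrl mice (SD, n = 9), 1.81 ± 0.12 in EtOH mice (SD, n = 7) and 1.91 ± 0.21 in EtOH-UA mice (SD, n = 7).

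**Figure D1:**
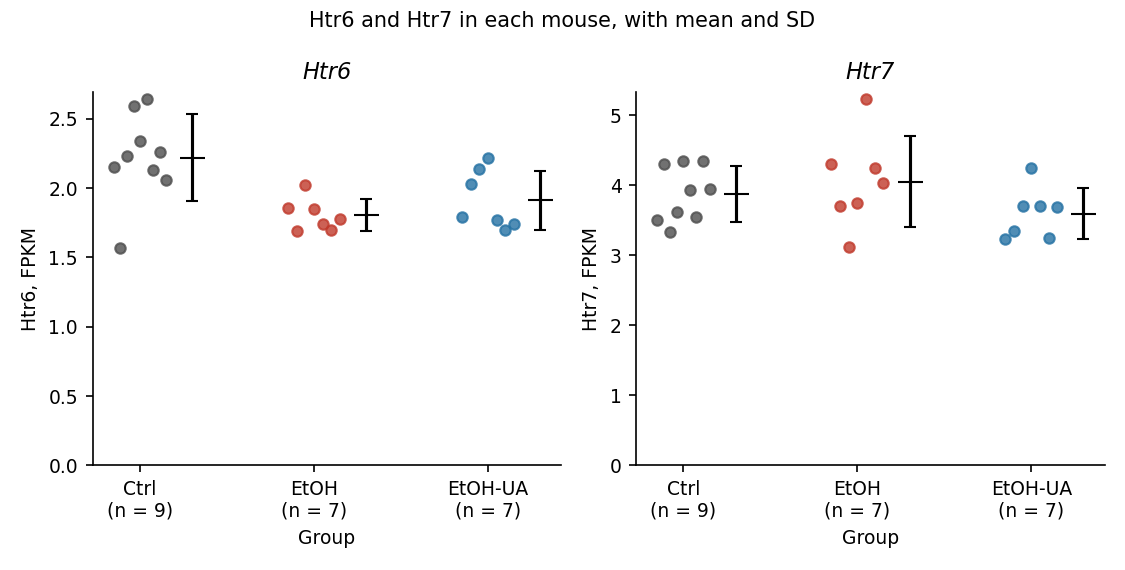
Htr6 (left) and Htr7 (right) in FPKM on the vertical axis, from 0, for the Ctrl, EtOH and EtOH-UA groups on the horizontal axis. Each point is 1 mouse and the bars beside the points give mean and SD. For Htr6 all 7 EtOH and all 7 EtOH-UA mice lie below the Ctrl median of 2.23 FPKM, with 1 Ctrl mouse at 1.57 below them. For Htr7 6 of 7 EtOH-UA mice lie below the EtOH median of 4.03 FPKM.

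In EtOH against Ctrl mice the log2 fold change of Htr6 was -0.27 (SE 0.09, 95% interval -0.45 to -0.09, limma unadjusted p = 0.0048, adjusted p = 0.999), a level 0.828 times that of Ctrl mice. The exact permutation test gave p = 0.00717. Of the 15985 genes 35 had a limma p at or below that of Htr6. Under an unadjusted p of 0.05 there were 487 genes (3.05%), a smaller share than the threshold itself allows by chance. The rank alone thus does not set Htr6 apart. Leaving out each mouse in turn gave log2 fold changes of -0.33 to -0.24. The former was reached without the Ctrl mouse at 1.57 FPKM, with an unadjusted limma p of 0.000209 and an exact permutation p of 0.000155. That mouse was the only Ctrl mouse to overlap the EtOH mice. Without it the groups separate fully, so this exact p is the smallest that the splits allow. The mouse lay below all EtOH and EtOH-UA mice, so leaving it out widens the difference from Ctrl mice in both comparisons and adds no support. In EtOH-UA against Ctrl mice the log2 fold change was -0.20 (SE 0.09, interval -0.38 to -0.02, limma unadjusted p = 0.033, adjusted p = 0.999, exact permutation p = 0.055). Without the same Ctrl mouse that exact permutation p was 0.00435 and the unadjusted limma p 0.00241, but the limma p was over 0.05 when any of 7 other mice was left out, up to 0.0733, and 0.0588 in a fit of the 2 groups alone. In EtOH-UA against EtOH mice it was 0.07 (interval -0.12 to 0.27, limma unadjusted p = 0.431, adjusted p = 0.907). Htr6 thus passed the threshold over all genes in no comparison, and the interval for UA holds both no difference and a rise nearly as large as the estimated difference between EtOH and Ctrl mice. The 7 EtOH mice had a coefficient of variation (CV) of 6.41%, where counting error alone would give about 11.2% at the estimated depth.

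The bases ahead of Htr6 are shown because it was the member with the smallest p, beside those of Htr1b, which moved with other receptors between mice as described further on. Both runs are the 250 bases before the start site in RefSeq on GRCm38.p6, at chr4:139075571-139075820 and chr9:81633833-81634082, on the minus strand and written 5′ to 3′. Of the members 8 had an entry in the RefSeq table, and windows that held bases of an annotated transcript are not shown. Capitals mark GC boxes (GGGCGG or its reverse complement).
Htr6: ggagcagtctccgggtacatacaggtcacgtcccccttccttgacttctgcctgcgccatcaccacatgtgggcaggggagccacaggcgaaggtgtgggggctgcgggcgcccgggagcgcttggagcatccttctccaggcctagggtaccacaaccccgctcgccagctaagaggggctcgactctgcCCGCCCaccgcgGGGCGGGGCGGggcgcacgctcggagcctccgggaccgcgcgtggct
Htr1b: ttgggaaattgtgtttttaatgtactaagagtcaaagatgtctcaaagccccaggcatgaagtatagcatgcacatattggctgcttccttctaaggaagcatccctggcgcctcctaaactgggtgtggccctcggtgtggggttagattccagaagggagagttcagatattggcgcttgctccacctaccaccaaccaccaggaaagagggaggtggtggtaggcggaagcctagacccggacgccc
The Htr6 window held 3 GC boxes, of which the last pair share a base, and 23 CpG dinucleotides, with 70.8% G or C. The Htr1b window held 0 GC boxes, 6 CpG dinucleotides and 52.4% G or C. Among the 32851 mouse promoter windows of this length 32.7% held a GC box, and the median was 6 CpG. The TATA box (TATAAA), the E-box (CACGTG) and the core of the cyclic AMP response element (TGACG), searched on both strands, were in neither window, while 12.4%, 6.02% and 17.8% of all windows held them. These are matches of letters and no evidence of binding.

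The members covered a wide range of levels. Over all 23 mice the median was 14.1 FPKM for Htr2c, 8.92 for Htr1a, 5.10 for Htr4, 4.37 for Htr3a, 3.71 for Htr7, 3.24 for Htr5a, 2.52 for Htr2a, 2.30 for Htr1b, 2.02 for Htr6 and 0.08 for Htr1d. The order of the medians was the same in EtOH and EtOH-UA mice, and in Ctrl mice Htr1b and Htr6 had the same median of 2.23 FPKM. Some neighbours in this order were well apart within a mouse: Htr1a was above Htr4 in 23 of 23 mice, and Htr5a above Htr2a in 22. Others were not, since Htr4 was above Htr3a in 16 of 23 mice, Htr2a above Htr1b in 17 and Htr1b above Htr6 in 15. Htr2c was above Htr1a in 9 of 9 Ctrl and 6 of 7 EtOH mice but in 4 of 7 EtOH-UA mice. Summed over all 10 genes the level was 45.83 FPKM at the median, of which the Gq-coupled pair made up 34.4%, the Gi/o-coupled genes 32.5%, the Gs-coupled genes 24.1% and the channel Htr3a 9.72%.

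**Figure D2:**
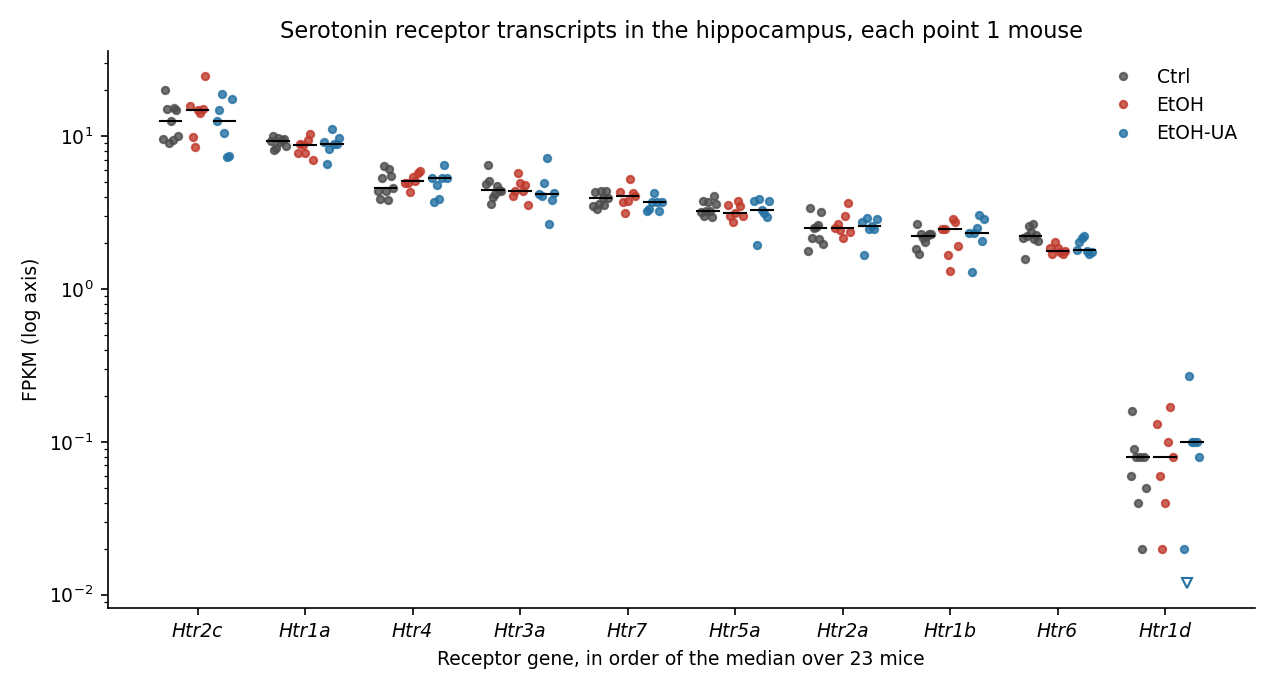
Level of the 10 receptor genes in FPKM on a logarithmic vertical axis, with the genes in order of their median over 23 mice. Each point is 1 mouse, coloured by group, the bars are group medians, and an open triangle near the axis stands for the EtOH-UA mouse in which Htr1d was listed at 0. The 3 groups overlap for every gene, and Htr1d lies far below the other 9.

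Of the Gi/o-coupled receptors, Htr1a is the best known in the hippocampus, where pyramidal cells carry it and where it opens inward rectifier potassium channels. It lies at chr13:105443693-105448133. Ctrl mice gave 8.12 to 9.94 FPKM (median 9.24), EtOH mice 6.96 to 10.26 FPKM (median 8.73) and EtOH-UA mice 6.54 to 11.16 FPKM (median 8.87). The Ctrl mice lay inside the range of both other groups. The CV was 7.00% in Ctrl mice, the lowest of the 9 receptors tested, and 13.3% and 15.8% in EtOH and EtOH-UA mice. The log2 fold change was -0.10 in EtOH against Ctrl mice (interval -0.28 to 0.07, limma adjusted p = 0.999) and 0.06 in EtOH-UA against EtOH mice (interval -0.13 to 0.24, adjusted p = 0.929).

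Htr1b, the receptor that restrains release from serotonin and glutamate terminals, lies at chr9:81628291-81633832. Of its 4724 exonic bases 852 are shared with D430036J16Rik on the opposite strand, and without a stated strand setting reads there cannot be told apart. Ctrl mice gave 1.70 to 2.64 FPKM (median 2.23), EtOH mice 1.31 to 2.88 FPKM (median 2.47) and EtOH-UA mice 1.30 to 3.06 FPKM (median 2.33). The mice of the ethanol-fed groups spread beyond the Ctrl mice at both ends, with a CV of 26.6% in EtOH and 24.4% in EtOH-UA mice against 13.1% in Ctrl mice. This difference in spread was not tested. Log2 fold changes were -0.01 in EtOH against Ctrl mice (interval -0.33 to 0.32) and 0.09 in EtOH-UA against EtOH mice (interval -0.25 to 0.43).

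Htr5a, a receptor of which rodents have a close relative, Htr5b, lies at chr5:27841716-27855086. Ctrl mice gave 2.94 to 4.04 FPKM (median 3.24), EtOH mice 2.73 to 3.75 FPKM (median 3.13) and EtOH-UA mice 1.94 to 3.89 FPKM (median 3.26). The value of 1.94 belonged to the EtOH-UA mouse with the highest summed FPKM. Log2 fold changes were -0.07 in EtOH against Ctrl mice (interval -0.30 to 0.16) and -0.02 in EtOH-UA against EtOH mice (interval -0.26 to 0.23). Htr1d, the relative of Htr1b at chr4:136423522-136444405, lay between 0.02 and 0.16 FPKM in Ctrl mice, between 0.02 and 0.17 in EtOH mice and between 0.00 and 0.27 in EtOH-UA mice, with 1 mouse at 0. A value of 0.02 FPKM is about 1 fragment on its longest coding transcript, so Htr1d was near the limit of detection. The exact permutation p was 0.659 in EtOH against Ctrl, 0.976 in EtOH-UA against EtOH and 0.698 in EtOH-UA against Ctrl mice. At this depth a difference could easily be missed.

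Of the Gq-coupled receptors, Htr2c had the highest level of the members and, by CV, the widest spread of the 9 tested. It is abundant in the epithelium of the choroid plexus, which makes the cerebrospinal fluid, and is also found in neurons, and it lies at chrX:146962464-147197277. The Ctrl mice ranged from 9.03 to 19.88 FPKM (median 12.63), the EtOH mice from 8.48 to 24.69 (median 14.79) and the EtOH-UA mice from 7.30 to 18.96 (median 12.49). The CV was 28.9% in Ctrl mice, where the median of the 10330 genes with a mean of 1 to 30 FPKM was 10.8%. The log2 fold change was 0.17 in EtOH against Ctrl mice (interval -0.29 to 0.63, limma adjusted p = 0.999), and it was -0.10 when the choroid plexus markers of each mouse were a covariate. In EtOH-UA against EtOH mice it was -0.22 (interval -0.70 to 0.27, adjusted p = 0.900).

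The amount of choroid plexus RNA varied greatly between the libraries. The summed level of 10 markers, which include the thyroxine carrier Ttr, the folate receptor Folr1 and the transcription factor Otx2, ranged from 9.21 to 2994 FPKM in Ctrl mice, from 72.5 to 5799 in EtOH mice and from 17.4 to 7860 in EtOH-UA mice. All 10 were higher in EtOH than in Ctrl mice, with a median log2 fold change of 1.72, and 2 of them, Clic6 and Otx2, had an unadjusted limma p under 0.05 (0.0384 and 0.0432, adjusted p = 0.999 for both). None of the 10 was at 0 in any mouse. The markers fell on either side of a gap: in 9 mice (5 Ctrl, 1 EtOH, 3 EtOH-UA) Ttr was between 3.88 and 70.2 FPKM, and in the other 14 (4 Ctrl, 6 EtOH, 4 EtOH-UA) it was between 470.2 and 7705 FPKM. Htr2c had a median of 9.56 FPKM in the 9 mice with little choroid plexus RNA (range 7.30 to 19.88) and of 14.9 FPKM in the 14 others (range 8.48 to 24.69). The highest value, 24.69, was that of the EtOH mouse with the highest choroid plexus score. The value of 19.88 was an exception among the 9, and it belonged to the Ctrl mouse with the lowest Prox1.

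A receptor was set against a marker score, the mean log2 deviation of a marker list, for 4 relations, each over deviations from the group means, with p-values from 100000 permutations and Benjamini-Hochberg adjustment over the 4. For Htr2c and the choroid plexus Pearson's r was 0.65 (permutation p = 0.00137, adjusted p = 0.00548) and Spearman's rho 0.67 (permutation p = 0.00076, adjusted p = 0.00304), and r was 0.67 without the 2 mice farthest from the median score. The mice were also split at the widest gap in the score. There the values were used with group differences left in, so r is not the same measure as above. On neither side did the relation pass: r was -0.34 over the 9 mice with little choroid plexus RNA (exact permutation p = 0.436) and 0.48 over the 14 others (permutation p = 0.0872). Spearman's rho over the 14 was 0.52 (permutation p = 0.0601). The choroid plexus was not the only list that Htr2c went with: as a description with no p, r was 0.67 and rho 0.67 with the 5 markers of the ventral hippocampus, and r was -0.46 with those of the dorsal hippocampus. The Ctrl mouse at 19.88 FPKM had the highest ventral score of the 23 mice. The part of either list in the difference between groups was not tested beyond the choroid plexus covariate.

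**Figure D3:**
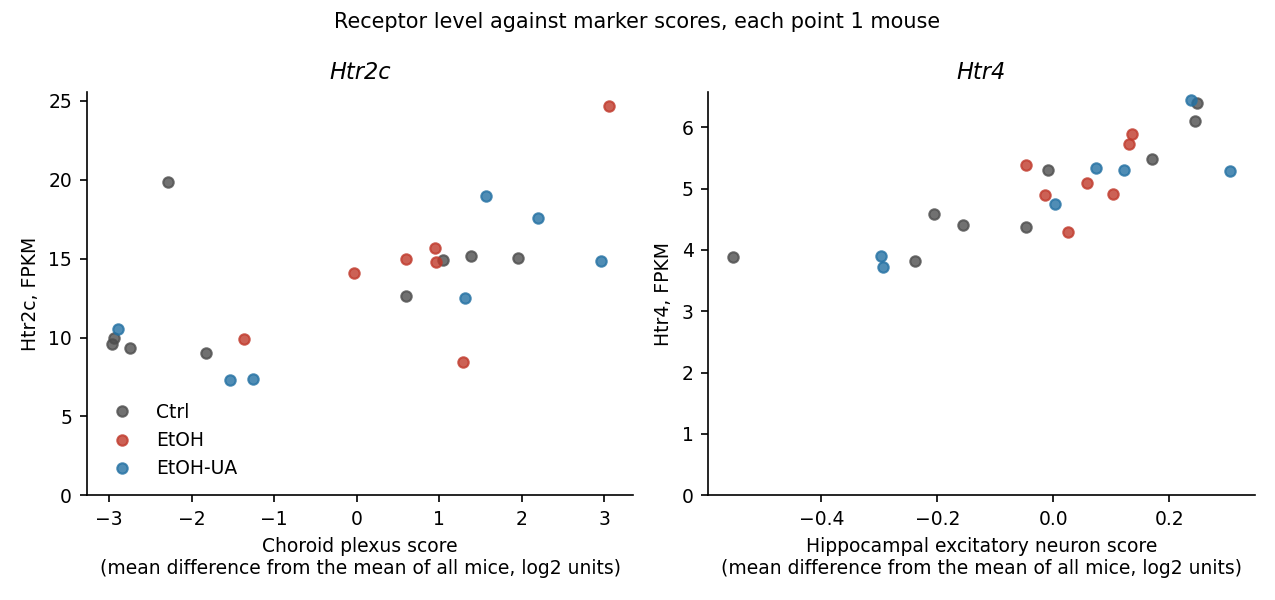
Left, Htr2c in FPKM against the choroid plexus score of each mouse, and right, Htr4 in FPKM against the hippocampal excitatory neuron score, with both vertical axes from 0. Each point is 1 mouse, coloured by group, and a score is the mean difference of its marker genes from their mean over all mice in log2 units. Htr2c is mostly near 10 FPKM left of the gap in the score, apart from 1 Ctrl mouse at 19.88, and higher right of it, while Htr4 rises with its score in all groups.

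Htr2a, the receptor through which serotonergic psychedelics act, lies at chr14:74640874-74706859. Ctrl mice gave 1.76 to 3.38 FPKM (median 2.51), EtOH mice 2.14 to 3.66 FPKM (median 2.52) and EtOH-UA mice 1.67 to 2.92 FPKM (median 2.58). The medians lay close together and each group covered most of the range of the others. Log2 fold changes were 0.12 in EtOH against Ctrl mice (interval -0.15 to 0.39), -0.08 in EtOH-UA against EtOH mice (interval -0.37 to 0.21) and 0.04 in EtOH-UA against Ctrl mice (interval -0.23 to 0.31).

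Of the other Gs-coupled receptors, Htr7, which lies at chr19:35958415-36058133 and is known for its part in circadian timing, had the smallest p in EtOH-UA against EtOH mice. Ctrl mice gave 3.33 to 4.35 FPKM (median 3.94), EtOH mice 3.12 to 5.23 FPKM (median 4.03) and EtOH-UA mice 3.23 to 4.25 FPKM (median 3.69). In the EtOH-UA group 6 of 7 mice were below the EtOH median, and the groups overlapped. The log2 fold change in EtOH-UA against EtOH mice was -0.16 (SE 0.09, interval -0.35 to 0.03, limma unadjusted p = 0.0965, adjusted p = 0.900, exact permutation p = 0.139). It depended on single mice. Without the EtOH mouse with the highest summed FPKM of its group, which was the lowest EtOH mouse for 5 of the 10 receptors, the log2 fold change was -0.22 (exact permutation p = 0.0221), and without the EtOH mouse at 5.23 FPKM it was -0.097 (unadjusted limma p = 0.272).

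Htr4, on chromosome 18, is carried by granule and pyramidal cells. Ctrl mice gave 3.82 to 6.40 FPKM (median 4.58), EtOH mice 4.30 to 5.89 FPKM (median 5.10) and EtOH-UA mice 3.72 to 6.44 FPKM (median 5.29). In the EtOH group 6 of 7 mice were above the Ctrl median, but the Ctrl mice spanned a wider range at both ends. Log2 fold changes were 0.08 in EtOH against Ctrl mice (interval -0.15 to 0.32, limma adjusted p = 0.999) and -0.07 in EtOH-UA against EtOH mice (interval -0.33 to 0.18, adjusted p = 0.929). Between mice Htr4 moved with the 10 markers of hippocampal excitatory neurons, among them Prox1 and Neurod6: over 23 mice Pearson's r was 0.87 and Spearman's rho 0.89, and r was 0.86 without the 2 mice farthest from the median score. This relation was noticed among all receptors and lists and is given with no p, and its points share library and depth. It was not the only list that Htr4 went with. Pearson's r was 0.605 with dentate granule cell markers, 0.56 with dorsal hippocampus and 0.49 with thalamus markers. It was -0.55 with markers of caudal ganglionic eminence interneurons, and -0.49 with both striatal and ventral hippocampus markers.

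The channel subunit Htr3a, which marks interneurons of the caudal ganglionic eminence, lies at chr9:48899213-48911152. Ctrl mice gave 3.62 to 6.50 FPKM (median 4.41), EtOH mice 3.53 to 5.69 FPKM (median 4.37) and EtOH-UA mice 2.66 to 7.23 FPKM (median 4.18). The EtOH-UA group held both the lowest and the highest of the 23 mice, and its CV was 31.6% against 15.3% in EtOH mice. Log2 fold changes were -0.02 in EtOH against Ctrl mice (interval -0.32 to 0.27) and -0.07 in EtOH-UA against EtOH mice (interval -0.38 to 0.24). With the 8 markers of these interneurons, among them Vip and Lamp5, Pearson's r was 0.49 (permutation p = 0.0181, adjusted p = 0.0362), but Spearman's rho was 0.37 (permutation p = 0.0856, adjusted p = 0.171). The value of r fell to 0.26 without the 2 mice farthest from the median score, and to 0.35 over all mice with FPKM scaled to a common sum. The relation thus did not hold in every setting. The remaining relations of the 4 were not detected. For Htr1a with 5 markers of the ventral hippocampus r was -0.12 (permutation p = 0.597, adjusted 0.624) and rho 0.02 (permutation p = 0.915, adjusted 0.915). For Htr7 with 7 markers of the thalamus r was 0.11 (permutation p = 0.624, adjusted 0.624) and rho 0.14 (permutation p = 0.51, adjusted 0.68). Without the 2 mice farthest from the median score r was -0.18 and 0.28. Other relations were noticed among all receptors and lists and are a description with no p. Htr3a went against the thalamic markers (r = -0.75, and -0.59 without the 2 farthest mice). Htr7 went with the markers of caudal ganglionic eminence interneurons (r = 0.68, and 0.63 without them). These lists were not the only ones. With dentate granule cell markers r was -0.59 for Htr3a and -0.60 for Htr7, and with striatal markers it was 0.57 for Htr7.

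**Figure D4:**
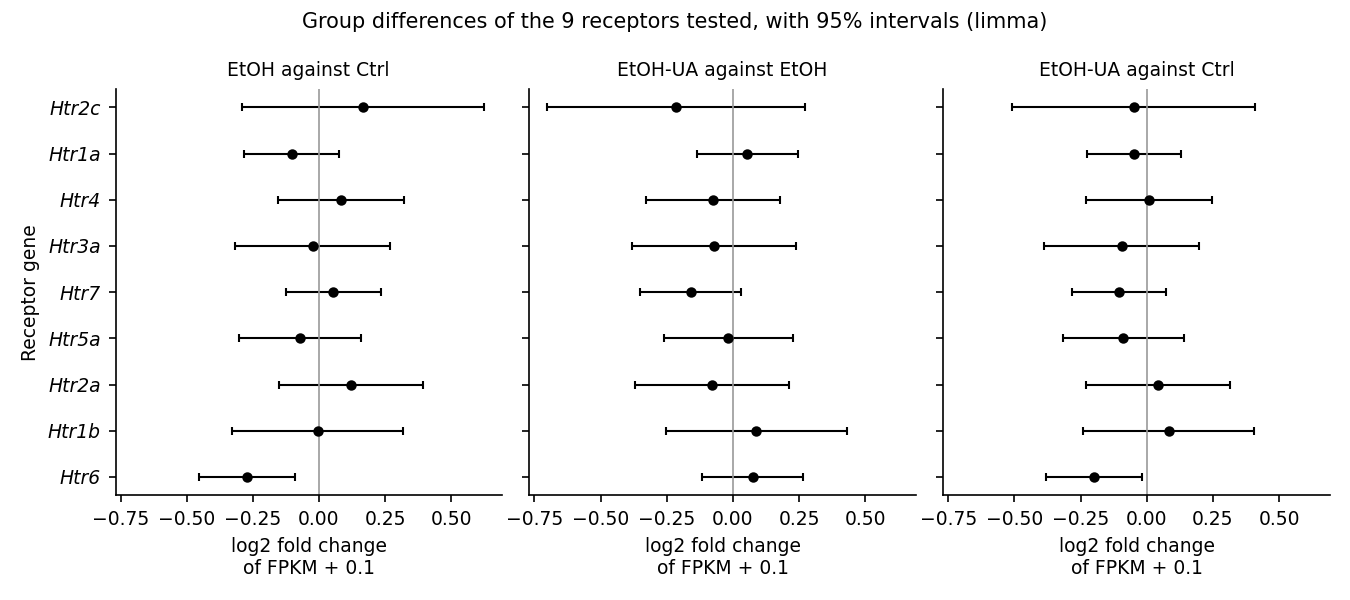
Log2 fold change of FPKM + 0.1 on the horizontal axis for the 9 receptors tested, with a panel for each comparison of groups. Points are limma estimates and bars 95% intervals from the model of 23 mice. Only the interval of Htr6 leaves out 0, at -0.45 to -0.09 in EtOH against Ctrl mice and at -0.38 to -0.02 in EtOH-UA against Ctrl mice.

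How large a difference could have been missed differed between receptors. In EtOH against Ctrl mice the 95% intervals reached from 0.18 (log2) on either side of the estimate for Htr1a to 0.46 for Htr2c. Simulated data of the same size had 200 genes changed at once and noise drawn independently for each gene. In them 74.0% of genes with a log2 fold change of 0.5 and 96.5% of those with 1 passed an adjusted p under 0.05. The adjusted threshold is stricter when fewer genes change, and a single changed gene was not simulated, so these rates do not hold for a receptor that changes alone. Changes of the size estimated for Htr6 are below the sizes simulated.

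Several receptors moved together between mice, within groups. Over deviations from the group means, the 10 pairs among Htr1a, Htr1b, Htr2a, Htr5a and Htr7 had a Pearson's r of 0.41 to 0.73 (median 0.61), and the 26 other pairs had -0.47 to 0.42 (median -0.01). The pair with the highest r was Htr5a with Htr2a (0.73), followed by Htr2a with Htr1b (0.71) and Htr5a with Htr1b (0.70). Htr4 and Htr3a were at the other end with -0.47, and Htr6 had a negative r with each of the other 8 receptors tested, which became positive for 4 of them when FPKM was scaled to a common sum. The set of 5 was chosen after the values were seen. The points share library and depth, and with the common sum in every library the 10 pairs had a median r of 0.75 (range 0.57 to 0.81). These correlations are a description and were not tested.

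**Figure D5:**
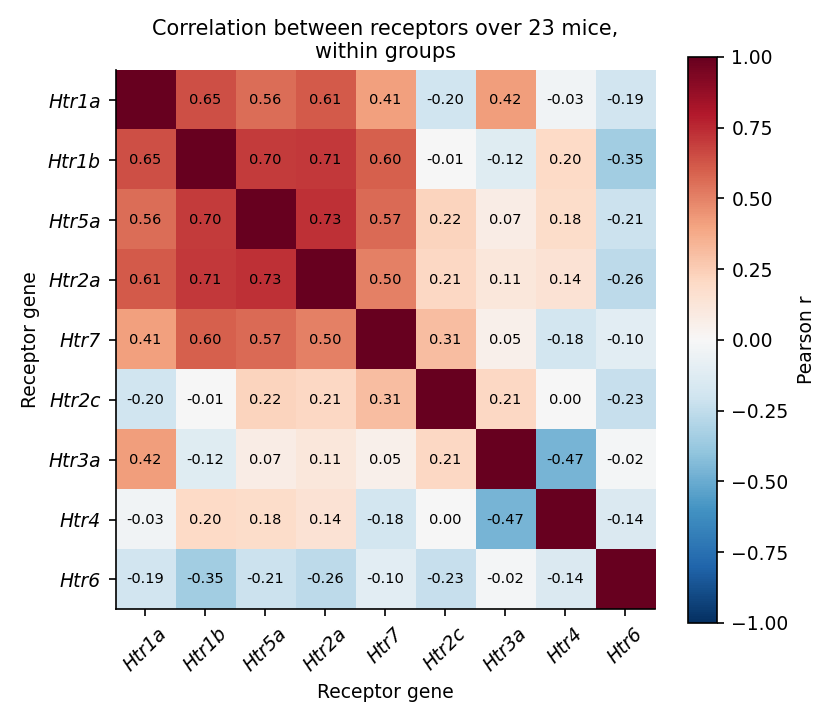
Pearson's r between each pair of the 9 receptors tested, over deviations from the group means in 23 mice, with receptors on both axes and r as colour and number. The block of Htr1a, Htr1b, Htr5a, Htr2a and Htr7 has r from 0.41 to 0.73, and the lowest value is -0.47 between Htr3a and Htr4.

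Among the 12904 genes compared, whose mean reached 1 FPKM, the ones most like each receptor over the 23 mice by Pearson's r were Lmtk2 (0.95), Arhgap26 (0.93) and Caln1 (0.92) for Htr5a, and Plxna4 (0.91), Mideas (0.90) and Nedd4l (0.90) for Htr4. For Htr2c they were Vat1l (0.89), Slc5a3 (0.87) and Tbc1d9 (0.86), none of which is on the choroid plexus list. For Htr1b they were Dab1 (0.85), Cdh6 (0.84) and Kcnh7 (0.84), for Htr2a Fam120b (0.83), Lmtk2 (0.80) and Hint3 (0.79), for Htr7 Pcsk1 (0.83), Gpr165 (0.81) and Chsy3 (0.80), for Htr3a Igfbp3 (0.82), Prmt2 (0.81) and Wbp11 (0.80), and for Htr1a Fam234b (0.80), Rassf5 (0.80) and Ache (0.80). Htr6 had the least close neighbours, Armc5 (0.67), Pigq (0.66) and Gm3488 (0.65). Lmtk2 thus stood among the 3 most alike for both Htr5a and Htr2a.

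The other genes of the serotonin system were read from lists of 58 genes, of which 56 passed the filter. None passed an adjusted p under 0.05 in any comparison, and at an unadjusted p under 0.05 there were 0 in EtOH against Ctrl mice, 2 in EtOH-UA against EtOH mice and 0 in EtOH-UA against Ctrl mice (limma), where 3.05%, 3.27% and 3.08% of all genes had such a p. A count of 2 among 56 is near that background. The 2 were Arrb2, the β-arrestin that takes receptors off the membrane, and Gch1, which makes the cofactor of serotonin synthesis. For Arrb2 the EtOH mice lay between 20.64 and 28.12 FPKM (median 21.93) and the EtOH-UA mice between 23.05 and 30.51 (median 24.9), and the log2 fold change was 0.17 (unadjusted p = 0.0212, adjusted p = 0.900). Gch1 lay between 0.31 and 0.70 FPKM in EtOH mice and between 0.45 and 0.70 in EtOH-UA mice, and the log2 fold change was 0.30 (unadjusted p = 0.0468, adjusted p = 0.900).

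Receptors outside the 10 were mostly low. Htr5b had a median of 2.34 FPKM, near Htr1b, while Htr1f was at 0.55, Htr2b at 0.18 and Htr3b, the partner subunit of Htr3a, at 0.02 with 11 of 23 mice at 0. The 3 that passed the filter had log2 fold changes with unadjusted p of at least 0.263 in every comparison. Of 4 markers of the serotonin-producing cells, the transporter Slc6a4 had a median of 0.02 FPKM and the transcription factor Fev a median of 0.00. Tph2, the neuronal enzyme that makes serotonin, had 0.40, and Slc18a2, the vesicular transporter that other monoamine cells also use, had 1.76. Of enzymes and carriers that other cells also use, Maoa had a median of 13.6 FPKM and the low-affinity carrier Slc29a4 8.48 FPKM. Slc29a4 had the smallest p of the transport genes in EtOH against Ctrl mice (log2 fold change 0.40, exact permutation p = 0.0643, limma adjusted p = 0.999).

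Downstream of the receptors, the 8 Gi/o effectors, which include the potassium channels Kcnj3, Kcnj6 and Kcnj9, had a median log2 fold change of -0.03 in EtOH against Ctrl mice and -0.01 in EtOH-UA against EtOH mice. The 14 Gs effectors, with adenylyl cyclases and phosphodiesterases, had -0.02 and -0.05, and the 9 Gq effectors 0.01 and -0.05. In EtOH-UA against EtOH mice 8 of the 9 Gq effectors were lower, with the smallest p at Plcb1 (log2 fold change -0.08, limma adjusted p = 0.900). In EtOH-UA against Ctrl mice the Gs effector with the smallest p was Pde4b, which breaks down cyclic AMP (log2 fold change -0.13, limma adjusted p = 0.999). The median over all genes was -0.0030 in EtOH against Ctrl mice and 0.0033 in EtOH-UA against EtOH mice, and none of these effectors passed the test.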

How the data were processed

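Hippocampal RNA of 23 mice was sequenced (9 Ctrl, 7 EtOH, 7 EtOH-UA). According to the methods of the study, poly(A)+ RNA was read as paired ends, filtered with SOAPnuke, aligned to mm10 with Bowtie2 and quantified with RSEM; the labels name total RNA, and the submitters' processing notes name HISAT2 2.1.0, Bowtie2 2.2.5, RSEM 1.2.8, StringTie and DESeq without saying what each was used for. The authors deposited FPKM to 2 decimals, scaled to transcript length and library size, and reads were not used here. Strandedness is not given in the sources used here, and RSEM shares out reads that fit several genes. The name of a column gives its group, and all columns were used.

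The values were transformed as log2(FPKM + 0.1) and fitted with limma 3.58.1 in R 4.3.3 (eBayes with trend, no covariate, Benjamini-Hochberg adjustment over 15985 genes), since the count test of the study cannot be applied to FPKM. Permutation tests and correlations were computed in Python 3.11.15. The receptors, gene lists and tests were chosen with earlier results of these data known. All 10 receptors are named, together with the genes of smallest p in each serotonin list, at most 2 per list and comparison, those that say what a list holds, and the 3 genes most like each receptor; genes that carry a statement outside this rule were chosen after their values were seen. Depth was estimated from the steps between low values of 582 genes with 1 annotated transcript in GENCODE M21, over full transcript lengths, and covers counting error only. The pipeline was tested on simulated data, where it called 0 genes when none was changed. Alternatives were other pseudocounts, filters, scalings and samples, robust eBayes, a choroid plexus covariate and each mouse left out in turn; covariates for granule cell and striatal markers and a fit without the 2 EtOH-UA mice of highest summed FPKM were added after the data had been seen. Coordinates are those of RefSeq on GRCm38.p6.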

Additional observations from a re-analysis of the deposited data

Results flagged for a closer look

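Each receptor was checked in each group for a mouse that stood apart from the others of its group, by Dixon's ratio of the gap to the nearest mouse over the whole range. Of 30 such checks 3 passed the critical value, where chance gives about 1 in 20, or 1.5. Htr1d had a ratio of 0.50 in Ctrl mice, where the highest mouse had 0.16 FPKM and the next 0.09, and a ratio of 0.63 in EtOH-UA mice, where the highest had 0.27 FPKM and the next 0.10. Each of these differences is a few fragments. Htr2a had a ratio of 0.624 in EtOH-UA mice, where the lowest mouse had 1.67 FPKM and the next 2.45. That mouse had the highest summed FPKM of all, 404609, and was the lowest of its group for 6 of the 10 receptors. Without it the log2 fold change of Htr2a in EtOH-UA against EtOH mice was 0.01, in place of -0.08.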

How the results depend on the processing

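Over 37 fits, including the reported one and each mouse left out in turn, 0 comparisons of a receptor passed the threshold on the adjusted p, whose lowest value for a receptor was 0.574. Htr6 stayed lower in EtOH than in Ctrl mice in all of them, with log2 fold changes of -0.33 to -0.19 and unadjusted limma p of 0.000209 to 0.0114; the smallest size came with a pseudocount of 1. Htr6 likewise stayed lower in EtOH-UA than in Ctrl mice (-0.26 to -0.14, unadjusted limma p of 0.00241 to 0.0733) and above EtOH mice in the EtOH-UA group (0.01 to 0.11). Genes called in each comparison numbered 0 in all alternatives that kept every mouse, and 0 to 1 with a mouse left out: LOC115488002 in EtOH against Ctrl mice without 1 Ctrl mouse (adjusted p = 0.0275), and LOC101055676 in EtOH-UA against EtOH and against Ctrl mice without either of 2 EtOH-UA mice (adjusted p = 0.00389 to 0.00939). The number of receptors with an exact permutation p under 0.05 was 1 to 2 in EtOH against Ctrl mice with a mouse left out (Htr6 each time, and Htr1a once, without 1 EtOH mouse, at exact permutation p = 0.0444), 0 to 1 in EtOH-UA against EtOH mice (Htr7) and 0 to 1 in EtOH-UA against Ctrl mice (Htr6). It was also 1 in EtOH-UA against Ctrl mice with a common sum of FPKM in every library (Htr6, exact permutation p = 0.0341).

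The other log2 fold changes that turned sign were small and none passed the test. In EtOH against Ctrl mice Htr1b was 0.0040 with a pseudocount of 1, 0.0193 with a common sum, 0.0125 with upper-quartile scaling, 0.0922 with the choroid plexus covariate and 0.0252 with the granule cell covariate, and Htr3a was 0.000614 with a common sum and 0.0086 and 0.0266 with these covariates, while Htr2c was -0.098 with the choroid plexus covariate. In EtOH-UA against Ctrl mice the choroid plexus covariate gave 0.000458 for Htr1a and -0.0267 for Htr4, and the granule cell covariate 0.0072 for Htr1a, 0.0157 for Htr2c, 0.0212 for Htr3a and -0.0857 for Htr4, which was -0.0155 with a common sum. In EtOH-UA against EtOH mice Htr5a was 0.0195 with the granule cell covariate. Without the 2 EtOH-UA mice of highest summed FPKM it was 0.112, Htr2a 0.0329 and Htr4 0.066, and Htr5a was 0.0406 against Ctrl mice. With a mouse left out, values in EtOH against Ctrl mice ranged from -0.074 to 0.106 for Htr1b, -0.0796 to 0.0384 for Htr3a and -0.0078 to 0.113 for Htr7. In EtOH-UA against EtOH mice they ranged from -0.0011 to 0.126 for Htr1a, -0.0232 to 0.215 for Htr1b, -0.128 to 0.0128 for Htr2a, -0.195 to 0.0395 for Htr3a and -0.0648 to 0.0965 for Htr5a. In EtOH-UA against Ctrl mice they ranged from -0.105 to 0.0222 for Htr1a, -0.0131 to 0.134 for Htr2a, -0.159 to 0.0683 for Htr2c, -0.219 to 0.0155 for Htr3a, -0.0557 to 0.0736 for Htr4 and -0.136 to 0.025 for Htr5a. The cause was not tested for any of these.

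The correlation of Htr3a with interneuron markers was 0.3656 as Spearman's rho, 0.2615 without the 2 mice farthest from the median score and 0.3474 with a common sum, none with a permutation p under 0.05. That of Htr1a with ventral markers was 0.0237 as Spearman's rho, and that of Htr7 with thalamic markers was 0.422 with a common sum (permutation p = 0.0443). The order of levels kept 8 of its 9 steps within Ctrl mice, with a tie at the last but one, and all 9 within EtOH and EtOH-UA mice. No paired analysis was possible because the columns carry mouse numbers and not the replicate numbers of the labels. Depth limits Htr1d most, at about 4 fragments per mouse.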
